A study of Homo sapiens with 6 samples.

Results

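The genes described here encode the enzymes and partner proteins of the polycomb system and of DNA methylation. They were 37 genes, taken by name from the gene annotation of a 2-colour Agilent human array on which 41810 gene names were present. They fell into PRC2 core (6 genes), PRC2 accessory (5), PRC1 catalytic and PCGF (9), PRC1 CBX and PHC (7), opposing enzymes (4), DNMT (3) and TET (3). Together they had 63 of the 58201 probes. Probes bright enough to stand well above background, in Cy3 or in Cy5, on 3 or more of the 6 arrays were tested, and these were 57 member probes from 36 genes. The gene without a tested probe was TET3, whose 3 probes were not well above background on any array.

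RNA came from 22RV1 cells, an established human prostate cancer line that the labels call SPINK1 positive, carrying lentiviral pLemiR-338-5p, pLemiR-421 or, as control, pLemiR-RFP, which encodes a red fluorescent protein. All cells, control included, were kept in puromycin. Each array held control RNA in Cy3 and RNA of 1 miRNA line in Cy5, with 3 arrays for miR-338-5p (replicates 1, 2 and 3) and 3 for miR-421 (a sample named as a pool, and replicates 1 and 2). The labels do not say what went into the pool, what the letter C before the other numbers means, whether replicates were separate cultures, or whether 1 control culture supplied every array, so p-values measure the spread between these samples, which may be technical. The series title places EZH2 upstream of these miRNAs, as their repressor. The arrays ask the reverse question, what the miRNAs do to transcript levels, EZH2 and its partners included.

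Polycomb proteins keep genes silent through histone marks. Polycomb repressive complex 2 (PRC2) methylates histone H3 through EZH2 or EZH1, which need EED and SUZ12 to work, while polycomb repressive complex 1 (PRC1) places ubiquitin on histone H2A through RNF2 or RING1, each paired with a PCGF protein. KDM6A and KDM6B remove the PRC2 mark, and BAP1 with ASXL1 removes the PRC1 mark. DNA methyltransferases (DNMT) add methyl groups to cytosines in CpG dinucleotides, and TET enzymes oxidise them. EZH2 is known for its high expression in advanced prostate cancer.

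A miRNA recognises messenger RNAs mainly through its seed, bases 2 to 8. The mature sequences of the overexpressed miRNAs, from RefSeq, are shown with the seed in capitals because their seeds differ and pair with different sites.
hsa-miR-338-5p: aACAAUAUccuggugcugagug
hsa-miR-421: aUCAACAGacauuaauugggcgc
The gene of the first lies on chromosome 17, with the mature miRNA at 81125923 to 81125944 on the minus strand, and that of the second on chromosome X, at 74218392 to 74218414 on the minus strand (GRCh38.p14). The site complementary to the miR-338-5p seed, ATATTGT, was present in 278 of the 58201 probe sequences (0.48%). Among the 63 member probes it occurred in 1, that of PHC3. The site of the miR-421 seed, CTGTTGA, was present in 325 probes (0.56%), and its 1 member probe was that of PCGF5. These stretches of the probes, each 30 bases in the direction of the transcript, carry the site in capitals.
PHC3, miR-338-5p site: ggatcatttatttATATTGTttatattaca
PCGF5, miR-421 site: tgtattttCTGTTGAtctatggaatgttct
A match is a description of the letters and not evidence of pairing. A probe covers a small stretch of its transcript, and no other transcript sequence was searched.

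All values below are log2 ratios of Cy5 (miRNA line) over Cy3 (control), so that 0 means equal signals and negative values mean less signal with the miRNA. A gene is represented by its brightest tested probe, and a gene passed the threshold when the Benjamini-Hochberg adjusted p of limma, over all tested probes, was under 0.05. In the miR-338-5p line 4 of the 36 measured members passed (11.1%), beside 9.36% of 21118 genes. SUZ12, MTF2 and TET1 were lower and BMI1 was higher, where 5.31% of all genes were lower and 4.05% were higher. In the miR-421 line 10 members passed (27.8%), beside 22.9% of all genes. All 10 were lower (SUZ12, RBBP4, MTF2, AEBP2, BMI1, RNF2, PHC3, PCGF5, PCGF6 and TET1), while over all genes 12.9% were lower and 10% were higher. The shares of members called are near those of the whole array in both comparisons, so the counts alone say nothing about the members as a group. The direction of the miR-421 calls leaned lower than that of the array as a whole, as a description.

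The counts moved with single arrays. The miR-338-5p count was 0 without miR-338-5p replicate 1, 1 without replicate 2, 0 without replicate 3, 1 without the miR-421 pool, 7 without miR-421 replicate 1 and 0 without miR-421 replicate 2, since all arrays share 1 estimate of the spread. The miR-421 count was 3 without its replicate 1 and 0 without its replicate 2.

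**Figure D1:**
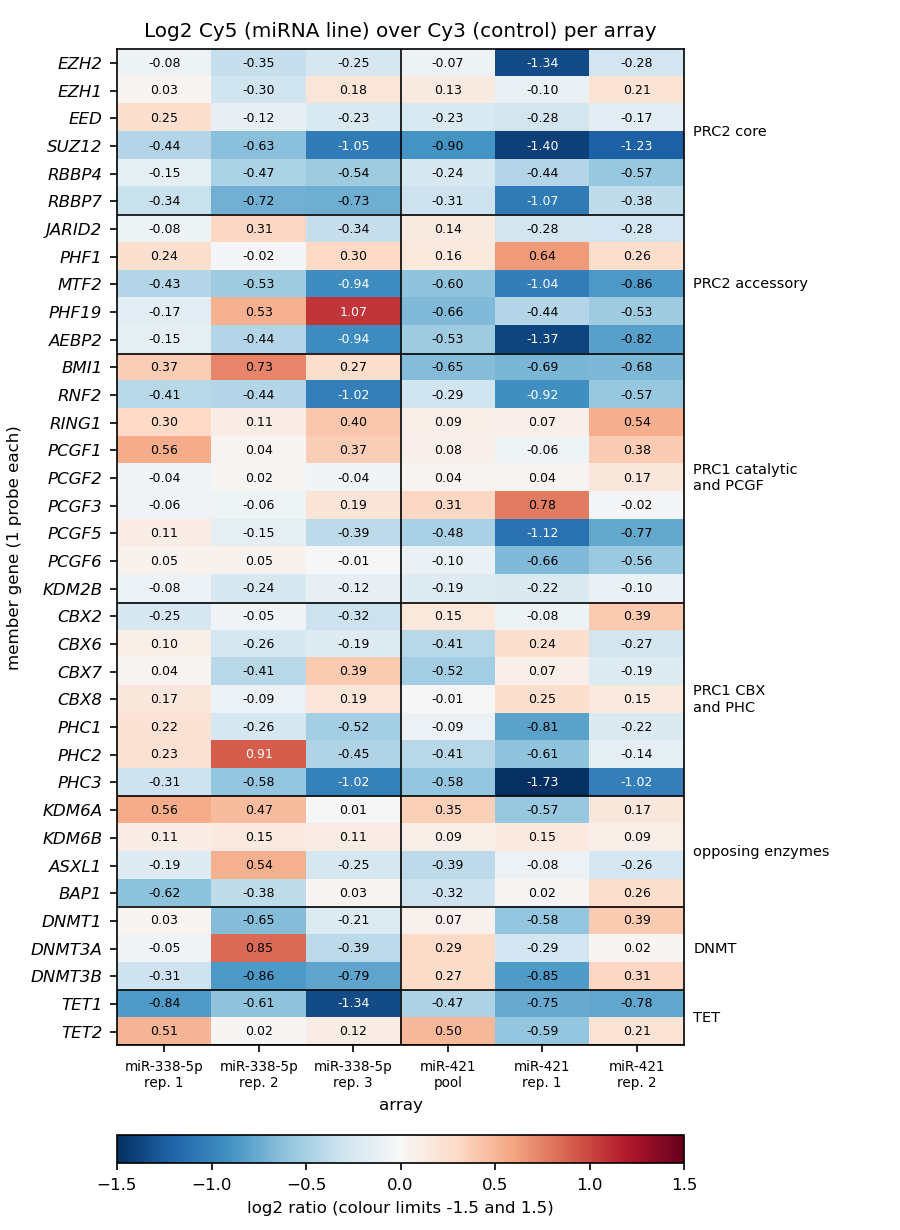
Log2 ratio of the representative probe of 36 member genes (rows, by class) on each of the 6 arrays (columns), with the value in each cell and colour from blue (lower in the miRNA line) to red (higher). EZH2, SUZ12, RBBP4, RBBP7, MTF2, AEBP2, RNF2, KDM2B, PHC3 and TET1 are below 0 on all 6 arrays, and BMI1 changes colour between the lines.

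The PRC2 core was lower in both lines by its median, -0.30 in the miR-338-5p line and -0.49 in the miR-421 line, beside 0.00 and 0.01 over all genes. Every core gene had a mean below 0 under miR-338-5p (6 of 6), and 5 of 6 under miR-421. Of these, 1 passed in the first line and 2 in the second, where 5.31% and 12.9% of all genes were called lower. Counts this small are no result about the class. The core median of single miR-421 arrays was lowest for replicate 1, at -0.75, against -0.33 for replicate 2 and -0.23 for the pool. Over the miR-338-5p arrays it lay between -0.41 and -0.11.

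EZH2, the catalytic subunit and the gene named in the title, had log2 ratios of -0.08, -0.35 and -0.25 in miR-338-5p replicates 1, 2 and 3. In the miR-421 line the pool had -0.07, replicate 1 had -1.34 and replicate 2 had -0.28. All 6 values were below 0, but 1 array lay far under the others and the lines overlapped. The mean was -0.23 ± 0.14 under miR-338-5p (SD, n = 3; limma adjusted p 0.604) and -0.57 ± 0.68 under miR-421 (SD, n = 3; limma adjusted p 0.137), and neither passed. Without miR-421 replicate 1 the miR-421 mean was -0.18 (limma adjusted p 0.277), and over the 16 alternatives of that result the adjusted p ran from 0.0996 to 0.28. The EZH2 probe lies on chromosome 7, 148504505 to 148504564, minus strand (hg19, as are all probe positions here).

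SUZ12, which holds PRC2 together and is needed for its activity, had the largest mean fall of any member by its representative probe. Its log2 ratios were -0.44, -0.63 and -1.05 in miR-338-5p replicates 1, 2 and 3, and -0.90, -1.40 and -1.23 in the miR-421 pool and replicates 1 and 2. All 6 arrays were below control, and the miR-421 values lay mostly lower, with overlap. It fell by 0.71 ± 0.31 under miR-338-5p (SD, n = 3; limma adjusted p 0.0373), to 61.2% of control, and by 1.18 ± 0.25 under miR-421 (SD, n = 3; limma adjusted p 0.00701), to 44.3% of control. The miR-421 fall passed in 15 of 16 alternatives and missed without miR-421 replicate 2 (limma adjusted p 0.0559). The miR-338-5p fall passed in 4 of 16, with adjusted p from 0.0335 to 0.122, and was lost without any 1 of its own arrays, without the miR-421 pool and without miR-421 replicate 2. The control signal of this probe was steady, with a range of 0.0944 over the Cy3 channels of the 6 arrays. The range over the Cy5 channels was 0.971, but these hold both miRNA lines, so the ranges are not like for like. A lower signal in bulk RNA can come from fewer cells that express a gene or from less RNA per cell, which cannot be told apart here.

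RBBP4, a histone-binding subunit shared with other chromatin complexes, had 4 tested probes. The brightest gave -0.15, -0.47 and -0.54 with miR-338-5p, and -0.24, -0.44 and -0.57 with miR-421 (pool first here and below). All 6 values were below 0 and the lines overlapped. The mean was -0.38 ± 0.21 under miR-338-5p (SD, n = 3; limma adjusted p 0.0678), and RBBP4 fell by 0.42 ± 0.17 under miR-421 (SD, n = 3; limma adjusted p 0.0356). The call held in 6 of 16 alternatives (adjusted p 0.0117 to 0.214), and was lost without any 1 of the miR-421 arrays and without miR-338-5p replicate 2, while the mean lay between -0.70 and -0.26. The RBBP4 probe at base 1938 was called lower in both lines, with means of -0.45 and -0.43 (limma adjusted p 0.0416 and 0.0276). So was the probe at base 7564, with means of -1.16 and -1.49 (limma adjusted p 0.0145 and 0.00475). The probe at base 1725 had means of -0.24 and -0.22 without a call. RBBP7, the close relative of RBBP4, had values of -0.34, -0.72 and -0.73 and of -0.31, -1.07 and -0.38. It was below 0 on every array, with means of -0.60 ± 0.23 and -0.59 ± 0.42 (SD, n = 3 each), and missed the threshold in both lines (limma adjusted p 0.0775 and 0.0519). EED, which reads the PRC2 mark, and EZH1, the alternative catalytic subunit, had means between -0.22 and 0.08 in the lines, without a call.

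Of the 5 accessory PRC2 proteins, MTF2 fell in both lines and AEBP2 in the miR-421 line. MTF2, which helps bring PRC2 to CpG-rich DNA, had values of -0.43, -0.53 and -0.94 under miR-338-5p and of -0.60, -1.04 and -0.86 under miR-421. No array was above -0.43, and the lines overlapped. It fell by 0.63 ± 0.27 (SD, n = 3; limma adjusted p 0.0351) and by 0.83 ± 0.22 (SD, n = 3; limma adjusted p 0.0106), to 64.5% and 56.1% of control. The miR-421 call was lost without miR-421 replicate 2 (15 of 16 alternatives passed, adjusted p 0.0076 to 0.0686). The miR-338-5p call passed in 4 of 16 (adjusted p 0.0305 to 0.113) and was lost without the same 5 arrays as that of SUZ12.

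AEBP2, a zinc finger protein that stabilises PRC2, had values of -0.15, -0.44 and -0.94 under miR-338-5p and of -0.53, -1.37 and -0.82 under miR-421. The lines overlapped, and the lowest array was miR-421 replicate 1. AEBP2 fell by 0.91 ± 0.43 under miR-421 (SD, n = 3; limma adjusted p 0.0284), and its mean under miR-338-5p was -0.51 ± 0.40 (limma adjusted p 0.168). The call passed in 11 of 16 alternatives (adjusted p 0.0198 to 0.109) and was lost without miR-421 replicate 1 or replicate 2. PHF19, a relative of MTF2, showed a different picture, with values of -0.17, 0.53 and 1.07 under miR-338-5p and of -0.66, -0.44 and -0.53 under miR-421. Its lines did not overlap, yet the spread of the miR-338-5p arrays was wide and no comparison passed (limma adjusted p 0.221 and 0.125; difference 1.02, 0.247). A second PHF19 probe, for another transcript record, had means of 0.00 and -0.25. JARID2 and PHF1 had means between -0.14 and 0.35 and no call.

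**Figure D2:**
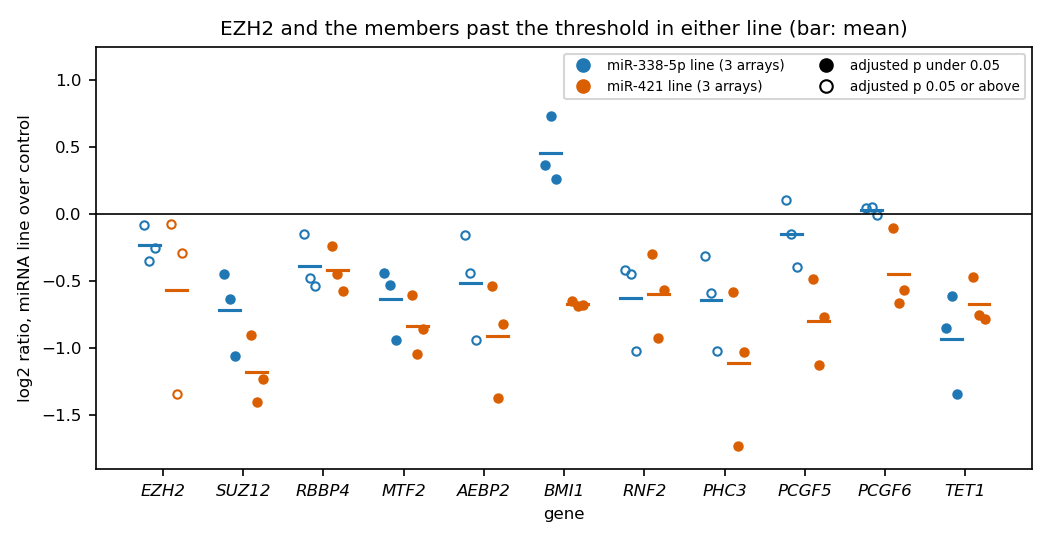
Log2 ratio (vertical axis) of EZH2 and of the 10 members past the threshold in either line, for 3 arrays per line (points) with their mean (bars). Filled points mark a limma adjusted p under 0.05 for that line. The BMI1 arrays lie between 0.27 and 0.73 under miR-338-5p and between -0.69 and -0.65 under miR-421, and the EZH2 point at -1.34 is miR-421 replicate 1.

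Among the PRC1 catalytic and PCGF genes, 4 of 9 fell in the miR-421 line and 1 rose in the miR-338-5p line, where 12.9% of all genes fell and 4.05% rose in these lines. These are counts of few genes and no result about the class. The class median was 0.02 in the first line and -0.17 in the second. BMI1, the PCGF protein that supports RNF2 in canonical PRC1, had values of 0.37, 0.73 and 0.27 under miR-338-5p and of -0.65, -0.69 and -0.68 under miR-421. Every miR-338-5p array was above control and every miR-421 array below it. BMI1 rose by 0.46 ± 0.25 (SD, n = 3; limma adjusted p 0.0396), to 137% of control, and fell by 0.67 ± 0.02 (SD, n = 3; limma adjusted p 0.00951), to 62.9% of control. The difference between the lines was 1.13 with a standard error of 0.13, and it did not pass over all probes (limma adjusted p 0.0688). The rise passed in 3 of 16 alternatives (adjusted p 0.0317 to 0.153) and was lost without any 1 of the miR-338-5p arrays, without the miR-421 pool and without miR-421 replicate 2. The fall passed in 15 of 16 (adjusted p 0.00464 to 0.0645) and was lost without miR-421 replicate 2. The size depended on the background correction, the normalization and the probe, with a mean between 0.28 and 0.75 for the rise and between -1.37 and -0.38 for the fall.

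The 2 BMI1 probes behaved unequally. The probe at chromosome 10, 22619577 to 22619636, gave the values above. The other one, nearer the 5′ end, crosses an exon junction, as its 60 bases span 22617587 to 22617995 on the genome, and has the sequence below.
BMI1, coding probe: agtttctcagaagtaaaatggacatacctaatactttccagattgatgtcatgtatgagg
Its values were 0.19, 0.20 and 0.04 with miR-338-5p, and -0.12, -0.04 and -0.12 with miR-421, in the same directions but without a call in either line (limma adjusted p 0.174 and 0.282). This probe was dim, with a mean log2 intensity of 5.98 against 7.05 for the first. It stood well above background on 4 of the 6 arrays. What part its dimness has in its small values was not tested. By accession, both probes also match the read-through gene COMMD3-BMI1, so BMI1 and that transcript cannot be told apart by them. COMMD3, the neighbouring gene of that read-through and no polycomb gene, was looked at after the BMI1 values were seen. It had values of 0.27, 0.28 and 0.35 under miR-338-5p and of -1.01, -1.05 and -0.88 under miR-421. COMMD3 rose by 0.30 ± 0.04 and fell by 0.98 ± 0.09 (SD, n = 3 each; limma adjusted p 0.0315 and 0.00189), and its difference of 1.28 passed (limma adjusted p 0.0303). Over all genes 0.0426% passed in the comparison of the lines.

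RNF2, the main ubiquitin ligase of PRC1, had values of -0.41, -0.44 and -1.02 under miR-338-5p and of -0.29, -0.92 and -0.57 under miR-421. All arrays were below 0 and the lines overlapped. The mean was -0.63 ± 0.34 under miR-338-5p (SD, n = 3; limma adjusted p 0.0671), and RNF2 fell by 0.60 ± 0.32 under miR-421 (SD, n = 3; limma adjusted p 0.0483). That call passed in 3 of 16 alternatives (adjusted p 0.037 to 0.318) and was lost without any 1 of the miR-421 arrays and without miR-338-5p replicate 1 or replicate 2. As the mean of both its probes RNF2 was at -0.25 (limma adjusted p 0.173). RING1, the other ligase of this kind, was above 0 on all 6 arrays, with means of 0.27 ± 0.15 and 0.24 ± 0.26 that did not pass (limma adjusted p 0.184 and 0.178).

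PCGF5, a partner of the ligases in variant PRC1, had values of 0.11, -0.15 and -0.39 under miR-338-5p and of -0.48, -1.12 and -0.77 under miR-421. The lines did not overlap. PCGF5 fell by 0.79 ± 0.32 under miR-421 (SD, n = 3; limma adjusted p 0.0173), to 57.8% of control, and its mean under miR-338-5p was -0.15 ± 0.25 (limma adjusted p 0.58). The call passed in 13 of 16 alternatives (adjusted p 0.0144 to 0.121) and was lost without miR-421 replicate 1 or replicate 2. This is the probe with the miR-421 seed match shown above, at chromosome 10, 93043866 to 93043925. The second PCGF5 probe, for a noncoding transcript record, had means of 0.23 and 0.00, and as the mean of both probes PCGF5 fell by 0.40 under miR-421 (limma adjusted p 0.0281).

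PCGF6, of another variant complex, had values of 0.05, 0.05 and -0.01 under miR-338-5p and of -0.10, -0.66 and -0.56 under miR-421. The lines did not overlap, and the pool lay closest to the miR-338-5p arrays. PCGF6 fell by 0.44 ± 0.30 under miR-421 (SD, n = 3; limma adjusted p 0.0381), a call that passed in 5 of 16 alternatives (adjusted p 0.0151 to 0.168) and was lost without miR-421 replicate 1 or 2 and without any 1 of the miR-338-5p arrays. PCGF1, PCGF2, PCGF3 and KDM2B, the CpG-binding partner of PCGF1, had means between -0.17 and 0.35 and no call. A second KDM2B probe was lower under miR-421, with a mean of -0.30 (limma adjusted p 0.0199).

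Of the CBX and PHC genes, whose products read the PRC2 mark and link PRC1 complexes to each other, PHC3 passed under miR-421 and the other 6 passed in neither line. PHC3 had values of -0.31, -0.58 and -1.02 under miR-338-5p and of -0.58, -1.73 and -1.02 under miR-421. All arrays were below 0, with miR-421 replicate 1 lowest and the lines overlapping. PHC3 fell by 1.11 ± 0.58 under miR-421 (SD, n = 3; limma adjusted p 0.0248), to 46.4% of control, and its mean under miR-338-5p was -0.64 ± 0.36 (limma adjusted p 0.144). The call passed in 11 of 16 alternatives (adjusted p 0.018 to 0.102). It was lost without miR-421 replicate 1, where the mean was -0.80, and without replicate 2. The PHC3 probe, at chromosome 3, 169805434 to 169805493, is the one with the miR-338-5p seed match. CBX2, CBX6, CBX7, CBX8, PHC1 and PHC2 had means between -0.38 and 0.23. PHC2 varied most, from -0.45 to 0.91 over the miR-338-5p arrays.

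The enzymes that oppose polycomb did not pass in either line, and their class medians were 0.08 and -0.02. KDM6A had the largest mean of the class, with values of 0.56, 0.47 and 0.01 under miR-338-5p and of 0.35, -0.57 and 0.17 under miR-421. The miR-421 arrays had both signs, and the means were 0.35 ± 0.30 and -0.02 ± 0.49 (SD, n = 3 each; limma adjusted p 0.32 and 0.961). KDM6B lay between 0.09 and 0.15 on the 6 arrays, by a dim probe (mean log2 intensity 6.31). Its miR-338-5p mean ran from 0.05 to 0.45 over 16 alternatives, so the narrow range holds for the main processing. BAP1 ranged from -0.62 to 0.26 over the arrays and ASXL1 from -0.39 to 0.54.

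The DNA methyltransferases passed in neither line. DNMT3B, a de novo enzyme, had values of -0.31, -0.86 and -0.79 under miR-338-5p and of 0.27, -0.85 and 0.31 under miR-421. The miR-338-5p arrays were all below control, while the miR-421 arrays split, with replicate 1 low. Its means were -0.65 ± 0.30 and -0.09 ± 0.66 (SD, n = 3 each; limma adjusted p 0.156 and 0.829). DNMT1, which copies methylation after replication, had means of -0.27 ± 0.34 and -0.04 ± 0.50, and it too was low on miR-421 replicate 1, at -0.58. DNMT3A, the other de novo enzyme, spread from -0.39 to 0.85 over the arrays.

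TET1, which oxidises methylated cytosine, fell in both lines. Its values were -0.84, -0.61 and -1.34 with miR-338-5p, and -0.47, -0.75 and -0.78 with miR-421. All 6 arrays were below control and the lines overlapped. It fell by 0.93 ± 0.37 (SD, n = 3; limma adjusted p 0.0215), to 52.5% of control, and by 0.67 ± 0.17 (SD, n = 3; limma adjusted p 0.027), to 63.0% of control. The first call passed in 11 of 16 alternatives (adjusted p 0.021 to 0.072) and was lost without miR-338-5p replicate 1 or 3 and without miR-421 replicate 2. The second passed in 9 of 16 (adjusted p 0.0154 to 0.128) and was lost without any 1 of the miR-421 arrays. With the background subtracted the means were larger, at -1.64 and -1.13. The TET1 probe, at chromosome 10, 70332072 to 70332131, reaches the start of the coding sequence. The 36 bases from the start codon, in capitals, are shown because they place the signal at the 5′ end of a long transcript.
TET1, start of coding sequence: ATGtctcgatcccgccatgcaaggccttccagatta
The TET1 probe near the other end, at 70453516 to 70453575, was not tested because it was too dim. TET2, tested by 4 probes, had means of 0.22 ± 0.26 and 0.04 ± 0.56 and no call.

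RBBP4 was past the threshold and lower in both lines only by probes other than its representative. By representative probe, SUZ12, MTF2 and TET1 were the members past the threshold and lower in both lines. Both comparisons use the control RNA, so their values are given side by side and the overlap is no separate result. Their promoters, the 250 bases before the transcription start in RefSeq (GRCh38.p14), are shown with each CpG in capitals, because CpG dinucleotides are what DNA methylation enzymes act on and KDM2B binds.
SUZ12, chr17:31936757-31937006, plus strand: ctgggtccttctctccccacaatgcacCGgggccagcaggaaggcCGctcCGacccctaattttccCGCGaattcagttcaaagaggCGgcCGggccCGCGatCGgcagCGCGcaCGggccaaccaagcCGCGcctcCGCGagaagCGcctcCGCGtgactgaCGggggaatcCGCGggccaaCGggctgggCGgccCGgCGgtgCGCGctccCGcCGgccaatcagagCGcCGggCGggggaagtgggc
MTF2, chr1:93079033-93079282, plus strand: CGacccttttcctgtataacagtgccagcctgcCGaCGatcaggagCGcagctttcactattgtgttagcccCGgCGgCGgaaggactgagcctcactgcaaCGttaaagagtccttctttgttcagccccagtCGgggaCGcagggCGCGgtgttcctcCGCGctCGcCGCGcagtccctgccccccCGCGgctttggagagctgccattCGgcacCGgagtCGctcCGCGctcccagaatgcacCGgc
TET1, chr10:68560087-68560336, plus strand: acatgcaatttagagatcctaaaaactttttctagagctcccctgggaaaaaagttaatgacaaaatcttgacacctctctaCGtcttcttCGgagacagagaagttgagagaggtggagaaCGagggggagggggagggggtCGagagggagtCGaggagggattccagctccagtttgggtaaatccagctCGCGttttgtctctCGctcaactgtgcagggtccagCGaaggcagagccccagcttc
They held 34, 25 and 9 CpG dinucleotides. A CpG was present in 93.9% of 35116 RefSeq promoters of this length, with a median of 11, so the TET1 promoter lay under that median and the other two above it. Promoters were found for 34 of the 37 members, with a median of 22.5 CpG and a range from 1 (PCGF2) to 45 (CBX6). CBX2, CBX8 and BAP1 had no entry. No methylation was measured in this series.

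**Figure D3:**
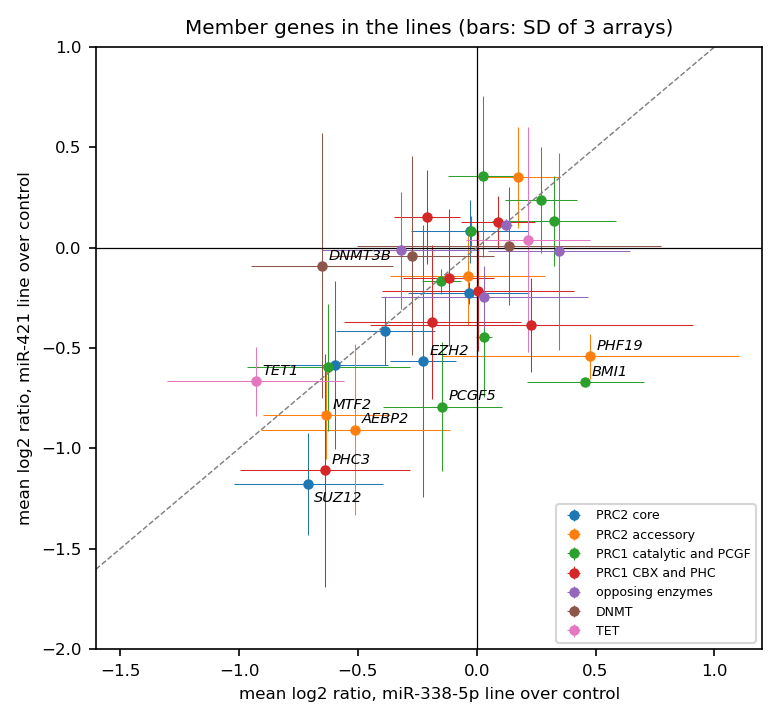
Mean log2 ratio in the miR-338-5p line (horizontal axis) against that in the miR-421 line (vertical axis) for 36 member genes, coloured by class, with bars for the SD of 3 arrays. The dashed line marks equal values. Both axes share the control RNA. BMI1, at 0.46 and -0.67, and PHF19, at 0.48 and -0.54, lie far under the dashed line.

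The comparison of the lines themselves, in which a level of the control common to all arrays cancels, gave no call among the 36 members in limma (0 of 36, beside 0.0426% of all genes). At an unadjusted p under 0.05 there were 5 members, beside 14.5% of all genes, a share near that of the array. Without background correction 1 member passed, BMI1, with a difference of 1.66 (limma adjusted p 0.0382). The BMI1 difference lay between 0.68 and 2.13 over 16 alternatives, with adjusted p from 0.0382 to 0.442. The lines did not overlap for 5 members, beside 20.2% of all genes. The miR-338-5p line was higher for PHF19, BMI1, PCGF5 and PCGF6, and the miR-421 line was higher for PCGF2, by small values. The share of members is no larger than that of the array.

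By sign alone, 12 members were below 0 on all 3 miR-338-5p arrays and 6 were above 0, where 26.7% and 23.8% of all genes were. Under miR-421 the numbers were 18 and 4, beside 30.7% and 29.6% of all genes. With 1 representative probe per gene, the lowest means were those of SUZ12 and PHC3 under miR-421, at 44.3% and 46.4% of control.

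Where a gene had several probes along 1 transcript, the probe nearer the 3′ end could be set against the one nearer the 5′ end, a test added after the data had been seen. RBBP4 showed the widest gap. Its probes start at bases 1725, 1938, 2329 and 7564 of the transcript, and the last of these gave -0.87, -1.20 and -1.42 with miR-338-5p, and -1.15, -1.80 and -1.52 with miR-421. The first gave 0.06, -0.38 and -0.40, and -0.22, -0.08 and -0.37. The far probe was lower on every array, with mean differences of -0.93 and -1.27 (limma adjusted p 0.0202 and 0.00633 over 2531 such pairs, 1 per transcript record). Probes 5839 bases apart in the RBBP4 transcript thus did not report the same change.

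RNF2 behaved likewise, with its far probe below the near one by mean differences of -0.70 and -0.69 (limma adjusted p 0.0377 and 0.0224). The near RNF2 probe itself was close to control, with means of 0.08 and 0.10. For BMI1 the difference passed under miR-421, at -0.58 (limma adjusted p 0.0109), and not under miR-338-5p, at 0.31 (limma adjusted p 0.0733). The near BMI1 probe is the dim one (mean log2 intensity 5.98), and the part of dimness in this difference was not tested. CBX7, PHC1, PHC2, KDM6A, DNMT3A and TET2 had no call. Of all 2531 pairs 8.42% and 21.8% passed, so unequal probes were not rare on these arrays. The far probe was the lower one in 122 of the 213 called pairs under miR-338-5p, and in 395 of 551 in the miR-421 line. Per the labels, the RNA was given poly(A) tails and then primed with oligo-dT. What part RNA quality, priming or transcript ends have in these differences was not tested.

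**Figure D4:**
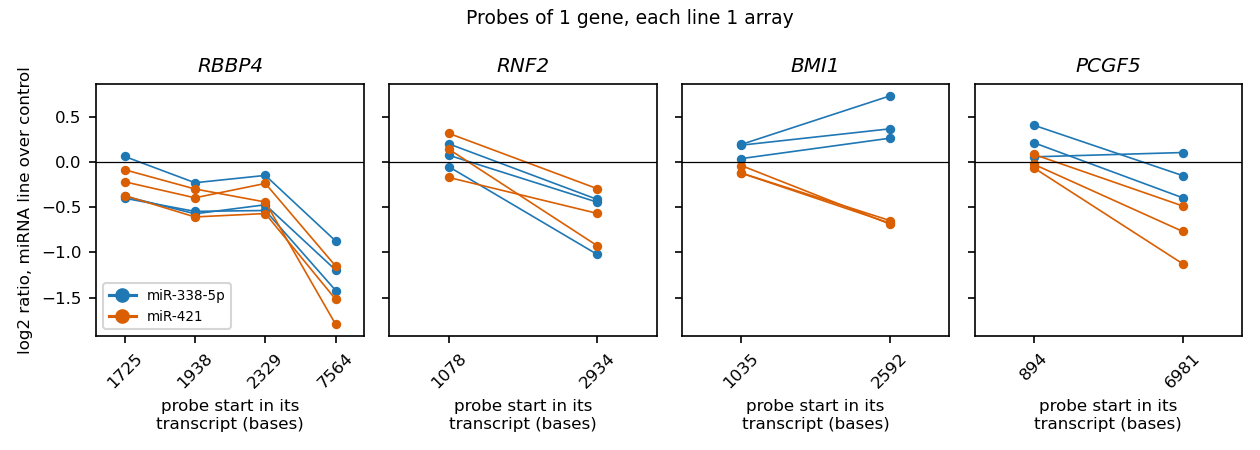
Log2 ratio (vertical axis) of every tested probe of RBBP4, RNF2, BMI1 and PCGF5, ordered by the start of the probe in its transcript (bases; evenly spaced, not to scale), with a line for each array. The PCGF5 probes belong to different transcript records. The RBBP4 probe at base 7564 lies between -1.80 and -0.87, under the other RBBP4 probes on every array.

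With the miR-338-5p site 140 probes were tested, with a median of -0.02 under miR-338-5p and 5% called lower and 6.43% higher, beside 5.2% and 3.78% of all probes. With the miR-421 site 176 probes were tested, with a median of 0.00 under miR-421 and 15.9% called lower and 11.9% higher, beside 12.5% and 9.17% of all probes, so that the called share was larger in both directions. These counts are a description of probe stretches, added after the data had been seen.

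Genes that act with the members were read from lists drawn up with earlier results known. Of 23 other genes that act with or against polycomb complexes, histone methyltransferases such as KMT2D included, 1 rose and 2 fell under miR-338-5p, and 7 fell under miR-421 in limma. Over all genes 4.05% rose and 5.31% fell under miR-338-5p, and 10% rose and 12.9% fell under miR-421. Counts this small are no result about this list or the next ones. L3MBTL1, a chromatin reader, fell by 0.56 ± 0.07 and 0.73 ± 0.08 (SD, n = 3 each; limma adjusted p 0.00904 and 0.00292). ASXL2, an alternative partner of BAP1, fell by 0.74 ± 0.13 and 0.96 ± 0.30 (limma adjusted p 0.022 and 0.00701). USP16, which removes ubiquitin from histone H2A, had a mean of -0.11 ± 0.15 under miR-338-5p and fell by 0.89 ± 0.25 under miR-421 (limma adjusted p 0.576 and 0.00691). The list median was -0.22 and -0.25, again beside 0.00 and 0.01 over all genes.

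Of 16 readers and partners of DNA methylation, 3 fell under miR-338-5p, beside 5.31% of all genes. Under miR-421 1 rose and 5 fell, beside 10% and 12.9% of all genes. UHRF1, which brings DNMT1 to newly made DNA, fell by 0.44 ± 0.12 and 0.36 ± 0.13 (SD, n = 3 each; limma adjusted p 0.0254 and 0.0246). HELLS, a remodeller needed for DNA methylation, fell by 0.33 ± 0.09 and 0.45 ± 0.06 (limma adjusted p 0.0293 and 0.00814). TDG, which removes the bases that TET enzymes make, fell by 1.06 ± 0.56 under miR-421 (limma adjusted p 0.0198).

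Of 13 genes listed from background knowledge as repressed by EZH2, 1 rose and 1 fell under miR-338-5p, beside 4.05% and 5.31% of all genes. Under miR-421 3 rose and 2 fell, beside 10% and 12.9% of all genes. KLF2, a transcription factor, rose by 0.69 ± 0.33 and 0.56 ± 0.09 (SD, n = 3 each; limma adjusted p 0.0296 and 0.029). MSMB, a prostate secretory protein, had values between 0.68 (replicate 2) and 2.19 (replicate 1) under miR-421 and between -0.01 and 0.11 under miR-338-5p, so its lines did not overlap. It rose by 1.62 ± 0.82 under miR-421 (SD, n = 3; limma adjusted p 0.0152). CDKN2A, a cell-cycle inhibitor, rose by 0.37 ± 0.19 under miR-421 (limma adjusted p 0.0253), while RND3 and SLIT2 fell by 0.54 and 0.25 there. RAP1GAP fell by 0.55 ± 0.09 under miR-338-5p (SD, n = 3; limma adjusted p 0.0137) and had a mean of -0.01 under miR-421. The list median was -0.15 and 0.11.

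Many members are known to be higher in dividing cells, and 20 proliferation genes were read beside them. Their medians were -0.38, -0.49 and -0.43 in the miR-338-5p arrays and -0.12, -0.82 and -0.07 in the miR-421 arrays. The lowest array was miR-421 replicate 1. On it 16 of the 36 members also had their lowest value of the 6 arrays, among them EZH2, EED, SUZ12, RBBP7, MTF2, AEBP2, BMI1, PHC3, PCGF5 and PCGF6, beside 26.9% of all genes. Of the 20 proliferation genes, 8 fell under miR-338-5p, beside 5.31% of all genes. Under miR-421 3 rose and 6 fell, beside 10% and 12.9% of all genes. The part of proliferation in the members' values was not tested.

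**Figure D5:**
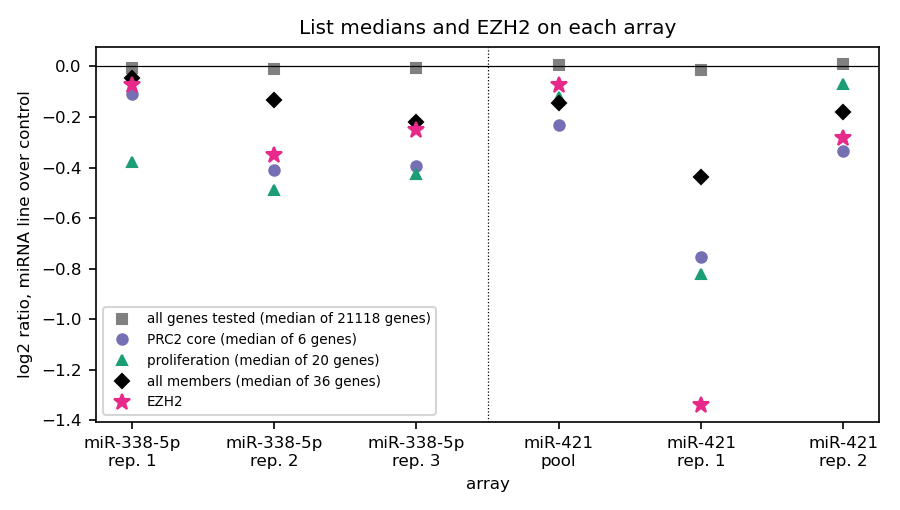
Median log2 ratio (vertical axis) on each array of the 21118 genes tested, of 6 PRC2 core genes, of 20 proliferation genes and of 36 members, with the value of EZH2. EZH2 and the medians of the members, the PRC2 core (-0.75) and proliferation (-0.82) are lowest on miR-421 replicate 1, while the median of the genes tested stays between -0.02 and 0.01.

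As to the arrays as a whole, between 44.3% and 47.9% of gene spots were well above background in Cy3 and between 41.9% and 48.3% in Cy5, the lowest on miR-421 replicate 1, and 0 were saturated. The 10 prostate epithelial and cancer markers were above background in the control channel of all 6 arrays, while 3 of 6 fibroblast, 4 of 5 leukocyte (CD68 had no probe) and 2 of 4 endothelial markers were. COL1A2, COL3A1, PECAM1 and KDR were above background there on 0 arrays. LUM, a fibroblast marker, rose by 2.14 ± 0.73 under miR-421 (SD, n = 3; limma adjusted p 0.0438), and its part in the members' values was not tested.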

How the data were processed

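Gene expression was measured on 6 Agilent 2-colour arrays (62976 spots, 60901 for genes, 58201 probes). Per the file headers, the scans were read by the authors in Feature Extraction 11.5.1.1. The intensity values used here, mean spot signal and median local background per dye, are deposited without normalization. The same software made the log10 ratios in the deposited files, per the file headers, and the authors' table holds log2 ratios whose normalization is not given in the sources used here; both served as alternatives. Probe positions are on hg19, per the file headers, and no exon or UTR annotation was used here.

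Background was corrected by normexp (offset 50), arrays were normalized by loess with control spots unweighted, and outlier spots were left out. Probes above background in Cy3 or in Cy5 on 3 or more arrays were kept (27497). limma 3.58.1 in R 4.3.3 fitted 1 mean per line over all 6 arrays (lmFit, eBayes, prior degrees of freedom 2.05) and tested each mean against 0 and the difference, two-sided, with Benjamini-Hochberg adjustment over probes at 0.05. For gene counts, 21118 genes had 1 probe each, the brightest over the arrays. Testing a ratio against 0 takes no account of how control cultures vary, and without a dye swap a probe's dye bias enters both comparisons with control. The number of arrays limits the precision. The fit was tested on simulated data.

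The members and all gene lists were chosen with earlier results of these data known. Array values are printed for EZH2, for each member past the threshold in any comparison and for the member with the largest mean change of each class; COMMD3, RBBP7 and members described for lines that did not overlap were named after their values were seen. Sequences come from RefSeq (GRCh38.p14) and from the probe sequences in the files. Alternatives covered background correction, normalization, the deposited ratios, the filter, outlier spots, the variance model, the probe of a gene, each array left out, the arrays of 1 line alone, and a block for the replicate number. The pairs of probes within a transcript and the probes with seed matches were added after the data had been seen. Some genes of the lists beside the members are not reported here.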

Additional observations from a re-analysis of the deposited data

Results flagged for a closer look

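BMI1 was the member past the threshold in both lines with opposite signs. Every miR-338-5p array was above control and every miR-421 array below it, with a difference of 1.13 on the log2 scale (limma adjusted p 0.0688, which does not pass). The direction of the difference was the same in all 16 alternatives, with values between 0.68 and 2.13, and it passed in 1 of them, without background correction (limma adjusted p 0.0382, over a range of 0.0382 to 0.442).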

How the results depend on the processing

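The number of members past the threshold depended on the processing, and no direction of a called member reversed. Under miR-338-5p it was 4 as reported and 1 without the filter on dim probes, in the authors' table, with the ratio of the image software, by median centring and by subtracting the background. It was 0 with trended and robust variance and with the line's own arrays, and between 0 and 7 with each array left out. Under miR-421 it was 10 as reported, 6 with the background subtracted, 5 with median centring, 4 without the filter, 6 with the line's own arrays and between 0 and 9 with each array left out. For the difference between the lines it was 0 as reported, 1 without background correction and 0 in the others. With the replicate block (numbers 1 and 2) it was also 0, and no probe passed on the whole array. The deviations of arrays with the same number correlated at -0.14 and -0.21. With so few arrays per line, these values cannot tell whether arrays of the same number share anything else, and the labels do not say. Of the values of single genes, 1558 kept their side of the threshold, 99 lost it, 13 gained it and 58 uncalled ones moved by over 1 SD of the replicates. Of the class medians 25 moved and 171 did not. With median centring the median of all probes lay at -0.08 and -0.02 in the lines. The cause of these changes was not tested.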
